A study of Mus musculus with 8 samples.

Results

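The genes described here were 9 regulators of mitochondrial cell death, taken as a fixed list from 31053 genes in the tables: Bcl2, Bcl2l1, Bcl2l2, Bcl2l11, Bax, Bak1, Bbc3, Bid and Casp9. The members were listed by name, without a threshold on measured values, and all 9 had UMIs in both conditions. Their levels were followed in 14 cell groups of the mouse dentate gyrus (DG), 13 of them carrying markers of a cell type and 1 an unnamed neuroblast cluster.

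The cells came from male Nestin-GFP mice, aged 8 weeks, that received either a sham craniotomy (Control) or a unilateral controlled cortical impact, a model of traumatic brain injury (TBI). At day 15 the ipsilateral DG was dissected, and living GFP-positive cells were sorted and profiled by droplet single-cell RNA sequencing (scRNA-seq). The transgene places GFP under nestin control elements, so it set which cells entered the sort; vascular, oligodendroglial and microglial cells were also present. Animals of each condition were pooled into 1 library, so there was no biological replicate, and no test between Control and TBI could be made.

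In the mitochondrial pathway of apoptosis, cell stress raises the activity of BH3-only proteins, which bind the anti-death members of the Bcl2 family and relieve the pore-forming members of restraint. The pore formers open the outer mitochondrial membrane, cytochrome c leaves the mitochondrion, and the initiator caspase is activated in the apoptosome. In the adult DG most newborn cells die by apoptosis before they mature, many of them between the progenitor and the neuroblast stage, and the balance of these genes is one known determinant of their survival.

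After filtering, 3049 Control cells with 24629521 UMIs and 5036 TBI cells with 31503415 UMIs remained, with a median of 6928 and 5663 UMIs per cell. A UMI is a tag that counts 1 captured RNA molecule, and levels are given as UMIs of a gene per 1000000 UMIs of all genes except Malat1 (CPM), summed over the cells of a group and library. Brackets hold the exact 95% Poisson interval of the level or the exact interval of a ratio, and both cover counting error only. Cell types are short names for clusters that are "-like" by their markers: the summed markers of each list were highest in its own type, except that the stem-like astroglia list had 4324 CPM there and 4347 CPM in smooth muscle and fibroblast-like cells in Control. The early neuroblast list had 11546 CPM in its type and 11283 in the unnamed neuroblast cluster. Other clusters, with 445 Control and 527 TBI cells, took no name and were left out of the 14 groups. The largest of them scored best for astrocytes (367 cells), oligodendrocytes (283 cells) and immature granule neurons (178 cells). The libraries shared 3 cell barcodes. Scrublet called 1.21% of Control and 2.14% of TBI cells doublets.

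Bax was by far the most detected of the 9, with 9785 UMIs in all cells and at least 1 UMI in 54.4% of cells. Bcl2l1 gave 3311 UMIs, Bcl2 2032, Bbc3 1333, Bcl2l11 1098, Bcl2l2 1037, Casp9 681, Bak1 637 and Bid 408. The last 3 were seen in under 10% of cells each, and their levels within a type rested on few UMIs.

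The windows of 250 bases upstream of the annotated start (RefSeq, GRCm38.p6) of the death repressor Bcl2 and its opponent Bax are shown because the contrast between these genes carries the main pattern below. Bcl2 is at chr1:106714291-106714540 and Bax at chr7:45466899-45467148, both on the minus strand and printed 5′ to 3′. Capitals mark 3 motifs on either strand. The GC box was searched as GGGCGG. The E-box was searched as CACGTG. The letters TGACGT stand for the cAMP response core. No 2 matches overlapped in these windows.
Bcl2: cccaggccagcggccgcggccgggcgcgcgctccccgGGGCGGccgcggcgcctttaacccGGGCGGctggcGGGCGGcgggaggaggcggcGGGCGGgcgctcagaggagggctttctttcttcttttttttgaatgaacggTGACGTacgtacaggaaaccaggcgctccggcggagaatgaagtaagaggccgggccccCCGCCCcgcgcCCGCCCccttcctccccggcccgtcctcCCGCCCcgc
Bax: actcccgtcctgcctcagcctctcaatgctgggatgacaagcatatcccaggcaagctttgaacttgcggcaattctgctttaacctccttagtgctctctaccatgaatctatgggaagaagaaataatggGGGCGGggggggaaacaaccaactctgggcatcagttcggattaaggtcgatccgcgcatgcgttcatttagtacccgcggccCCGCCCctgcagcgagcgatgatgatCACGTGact
The Bcl2 window held 7 GC boxes and 1 cAMP response core and was 74.8% G and C. The Bax window held 2 GC boxes and 1 E-box and was 54.0% G and C. All 9 genes matched the RefSeq table, with 14 windows: 7 genes had a GC box in at least 1 window, 2 had an E-box and 1 had the cAMP response core. Of 32851 windows of the same length, 32.7% held the GC box, 6.02% the E-box and 6.47% the cAMP response core. These shares are per window and the counts above per gene, some with several windows, so they are not directly comparable. A match in letters is a description, not a binding site.

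Bcl2 (chromosome 1, 106538178 to 106714274, GRCm38), the founding anti-death member, had the widest range of the list and was highest in astroglia. In stem-like astroglia its level was 389 CPM (333 to 451) in Control and 335 (255 to 432) in TBI. In astrocytes it was 167 CPM (150 to 187) and 197 (174 to 221). The astrocyte clusters differed: the largest, led by Ttr, had 47.7 and 55.4 CPM. The cluster led by Aqp4 had 127 and 93.6 CPM, and that led by Agt 298 and 342. Oligodendrocytes held the lowest level in both libraries, 1.31 CPM from 7 UMIs in Control and 1.58 from 13 UMIs in TBI.

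Along the neuronal lineage Bcl2 passed through a minimum. Radial-glia-like (RG-like) progenitors had 50.0 CPM (40.8 to 60.6) in Control and 30.3 (23.9 to 37.9) in TBI. Cycling progenitors had 27.3 and 23.1 CPM, early neuroblasts 8.85 (5.06 to 14.4) and 6.89 (4.08 to 10.9), and the unnamed neuroblast cluster, which was led by Ebf1, Tubb3 and Nhlh1, 5.89 and 5.30. Late neuroblasts were higher again, at 31.2 CPM (25.0 to 38.5) and 25.1 (20.2 to 30.8). In both libraries the intervals of early neuroblasts overlapped neither those of the progenitors nor those of the late neuroblasts.

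The late neuroblasts were not uniform for Bcl2. A cluster led by Neurod2 had 20.5 CPM (13.9 to 29.3) in Control and 15.6 (10.4 to 22.6) in TBI, and a cluster led by Sema5a 46.6 (35.1 to 60.7) and 35.6 (27.1 to 45.8). The Sema5a-led cluster scored 1.04 both for the late neuroblast markers and for those of immature granule neurons, which no cluster was named for. A small late cluster with little RNA per cell gave 5 Bcl2 UMIs in all. The Sema5a-led cells thus reached the level of RG-like progenitors within the intervals of each library. The Neurod2-led intervals overlapped those of early neuroblasts in both libraries.

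Outside the lineage, Bcl2 was 70.0 CPM (52.1 to 92.0) in Control and 84.3 (71.7 to 98.4) in TBI in pericytes, the contractile cells of capillaries, and 37.4 and 28.7 CPM in endothelial cells. In the order of the 14 groups, 3 of 13 neighbouring pairs in Control and 4 of 13 in TBI had intervals that did not overlap. Stem-like astroglia, astrocytes, pericytes and RG-like progenitors held the first 4 places in both libraries.

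**Figure D1:**
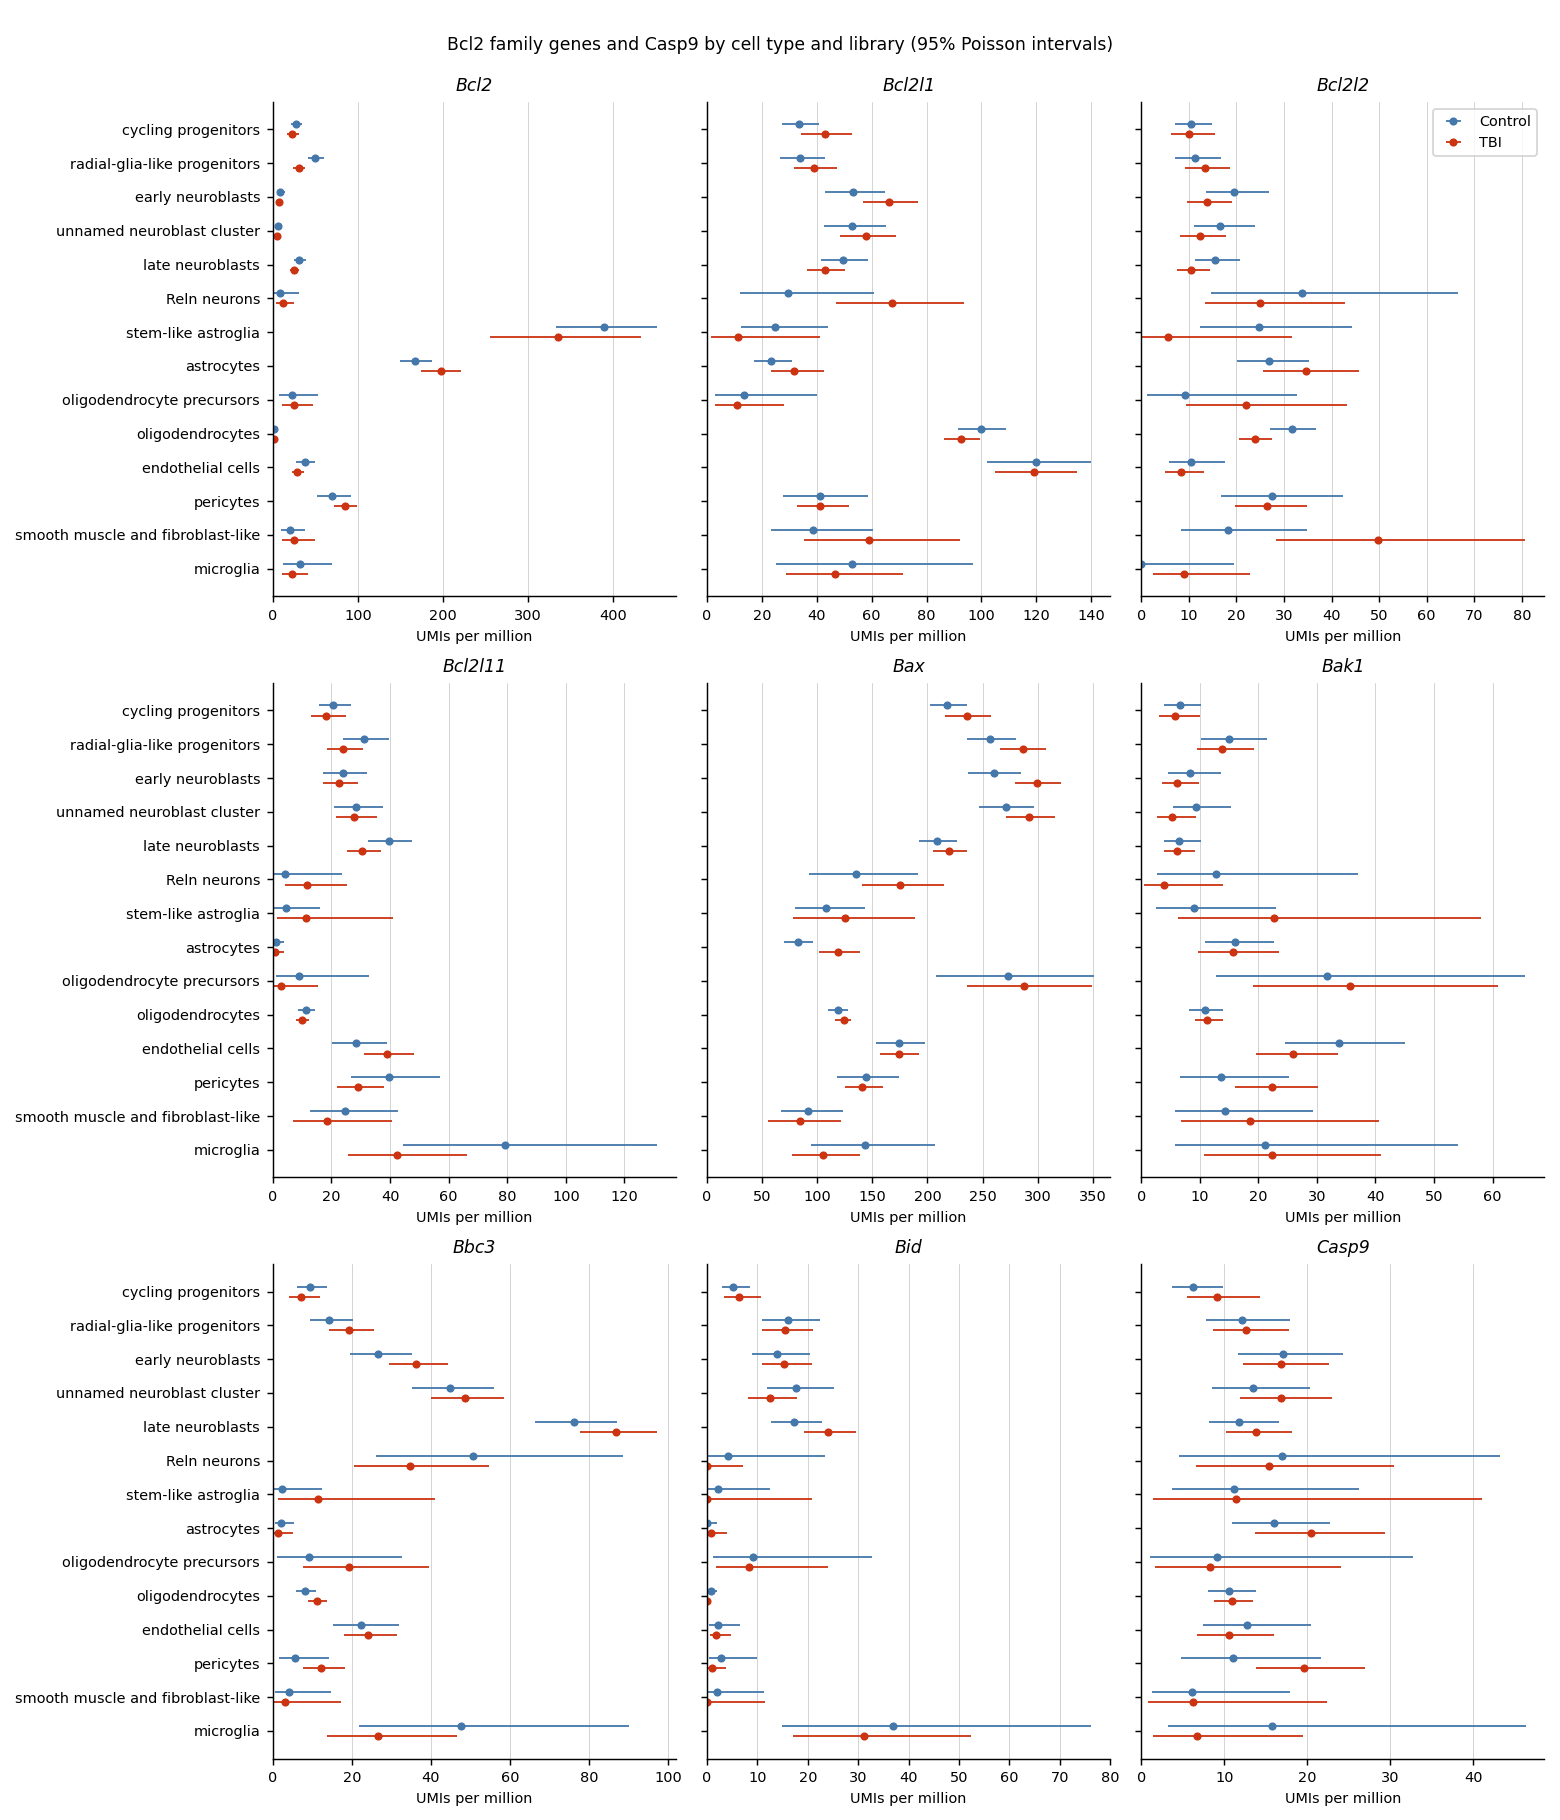
Level of each of the 9 genes (CPM on a linear axis from 0, scaled to each gene) in each cell group, with Control in blue, TBI in red and exact 95% Poisson intervals as bars. Bcl2 runs from 389 CPM in Control stem-like astroglia down to 1.31 CPM in Control oligodendrocytes, while Casp9 stays between 6.11 and 20.5 CPM.

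Shares of cells with a UMI showed the same astroglial weight. They were compared after each cell was thinned to 2000 UMIs, which left out shallower cells and kept 2697 Control and 4295 TBI cells. At least 1 Bcl2 UMI was then found in 48.1% of Control and 54.1% of TBI stem-like astroglia and in 22.8% and 29.2% of astrocytes. In oligodendrocytes it was found in 1 of 467 Control cells, or 0.214%, and in 0 of 946 TBI cells, which allows a share of up to 0.317% of cells with a UMI at this thinned depth. Early neuroblasts had 1 such cell in each library, or 0.667% and 0.365%, and Sema5a-led late neuroblasts 13.9% and 7.20%. Before thinning the shares were 76.1% and 63.6% in stem-like astroglia, 37.0% and 28.9% in astrocytes, 8.0% and 6.2% in early neuroblasts and 0.857% and 1.16% in oligodendrocytes. The Ttr-led cluster held 560 of 1056 astrocytes. Its median depth was 0.24 of the library median, so the thinned astrocyte shares leaned on the deeper astrocyte clusters.

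Bcl2l1 (chromosome 2, 152780668 to 152831728), which encodes the anti-death protein Bcl-xL, was distributed differently. It was highest in endothelial cells, at 120 CPM (102 to 140) in Control and 119 (105 to 135) in TBI. Oligodendrocytes followed, with 99.9 CPM (91.6 to 109) and 92.7 (86.2 to 99.5), and their precursors were lowest, with 13.6 and 11 CPM. The type with the least Bcl2 was therefore among those with the most Bcl2l1. Astrocytes, rich in Bcl2, had 23.2 CPM (17.0 to 31.1) and 31.8 (23.2 to 42.6) of Bcl2l1.

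In the neuronal lineage Bcl2l1 had no minimum in the neuroblast groups. Early neuroblasts had 53.1 CPM (43.0 to 64.9) in Control and 66.2 (56.7 to 76.8) in TBI. RG-like progenitors had 34.0 and 39.0 CPM, cycling progenitors 33.5 and 42.9, and late neuroblasts 49.5 and 43.0. None of these steps reached 2-fold. Across the 13 types of at least 50 cells, taken by library as 26 points, log2(CPM + 1) of Bcl2 and Bcl2l1 had a Pearson r of -0.54. It is given as a description, since points of a type share their cells' identity and points of a library their depth.

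Bcl2l2 (chromosome 14, 54883377 to 54888234), encoding the anti-death protein Bcl-w, was lower and flatter. Astrocytes had 26.9 CPM (20.1 to 35.2) in Control and 34.6 (25.6 to 45.8) in TBI. Oligodendrocytes had 31.6 (27.0 to 36.7) and 23.8 (20.6 to 27.4), and pericytes 27.4 and 26.5. The neuronal lineage groups among the 14 lay between 10.1 and 19.4 CPM, and endothelial cells had 10.5 and 8.33. Within late neuroblasts, the Neurod2-led cluster had 16.4 CPM in Control and 8.92 in TBI. Bcl2l2 shares 594 of its 4462 exonic bases, 13.3%, with the gene model Gm20521 on its strand. In its last exon 440 of 3861 bases are shared. Reads from shared bases are not assigned to a gene, so its level may be too low by an amount that was not measured.

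Bax (chromosome 7, 45461697 to 45466898), a pore-forming effector, was high in most groups of the neuronal lineage. Early neuroblasts had 260 CPM (237 to 285) in Control and 299 (279 to 321) in TBI, the unnamed neuroblast cluster 271 and 292, and RG-like progenitors 257 (236 to 280) and 287 (266 to 308). Cycling progenitors had 218 and 236 CPM and late neuroblasts 209 and 220. Oligodendrocyte precursors, at 273 (208 to 351) and 288 (236 to 349), were as high as the early neuronal groups within the intervals.

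Among late neuroblasts the direction of Bax was opposite to that of Bcl2. The Neurod2-led cluster had 229 CPM (206 to 255) in Control and 249 (227 to 273) in TBI, and the Sema5a-led cluster 158 (136 to 182) and 172 (153 to 193), intervals that did not overlap in either library. The low-RNA late cluster had the highest Bax among these groups, 417 CPM (319 to 535) and 418 (319 to 537), in 38 and 47 cells whose median mitochondrial share was 14% in Control. The share of Bax exonic bases that lie in a second gene model, Gm45808, was 12.2%, with 0 of the 270 bases of its last exon among them.

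Differentiated types had less Bax than the progenitors and early neuroblasts, though the Sema5a-led late cluster was no higher than endothelial cells. Endothelial cells had 174 CPM in each library, pericytes 144 and 141, oligodendrocytes 119 (110 to 128) and 124 (116 to 131), and stem-like astroglia 108 and 125. Control astrocytes were lowest in that library, at 82.1 CPM (69.9 to 95.9), against 119 (102 to 139) in TBI astrocytes. In TBI the lowest were smooth muscle and fibroblast-like cells, at 83.9 CPM beside 91.7 in Control, followed by microglia at 105.

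Bak1 (chromosome 17, 27019810 to 27029009), the other pore former on the list, was sparse. Oligodendrocyte precursors had 31.8 CPM (12.8 to 65.6) in Control and 35.7 (19.0 to 61.0) in TBI, and endothelial cells 33.7 (24.6 to 45.1) and 25.9 (19.6 to 33.6). In the neuronal lineage it lay between 5.30 and 15.0 CPM, highest in RG-like progenitors. The high level of Bax in neuroblasts was thus not shared by Bak1.

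Bbc3 (chromosome 7, 16308393 to 16318205), which encodes the BH3-only protein Puma, was higher in the neuroblast groups than in the progenitors. Cycling progenitors had 9.32 CPM (6.14 to 13.6) in Control and 7.23 (4.04 to 11.9) in TBI. RG-like progenitors had 14.1 (9.42 to 20.2) and 19.3 (14.3 to 25.5), early neuroblasts 26.6 (19.6 to 35.2) and 36.3 (29.4 to 44.4), the unnamed neuroblast cluster 44.7 and 48.6, and late neuroblasts 76.1 (66.2 to 87.0) and 86.9 (77.6 to 97.1). This order is by level, while Bcl2 above was listed with RG-like progenitors first. The order was the same in both libraries, though some neighbouring intervals overlapped. In Control this held for the progenitor groups, and for RG-like progenitors and early neuroblasts. In TBI it held for early neuroblasts and the unnamed neuroblast cluster (39.9 to 58.6). The Neurod2-led and Sema5a-led late clusters did not differ in Bbc3 beyond their intervals, with 78.1 and 76.2 CPM in Control and 88.7 and 87.7 in TBI, unlike their Bcl2 and Bax.

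Astrocytes were nearly without Bbc3, with 4 UMIs in 495 Control cells (2.07 CPM) and 2 UMIs in 561 TBI cells (1.41 CPM). Oligodendrocytes had 8.21 and 11.2 CPM and endothelial cells 22.4 and 24.1. Reln neurons, a small group of 29 Control and 85 TBI cells, had 50.6 CPM (26.2 to 88.5) and 34.7 (20.5 to 54.8).

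**Figure D2:**
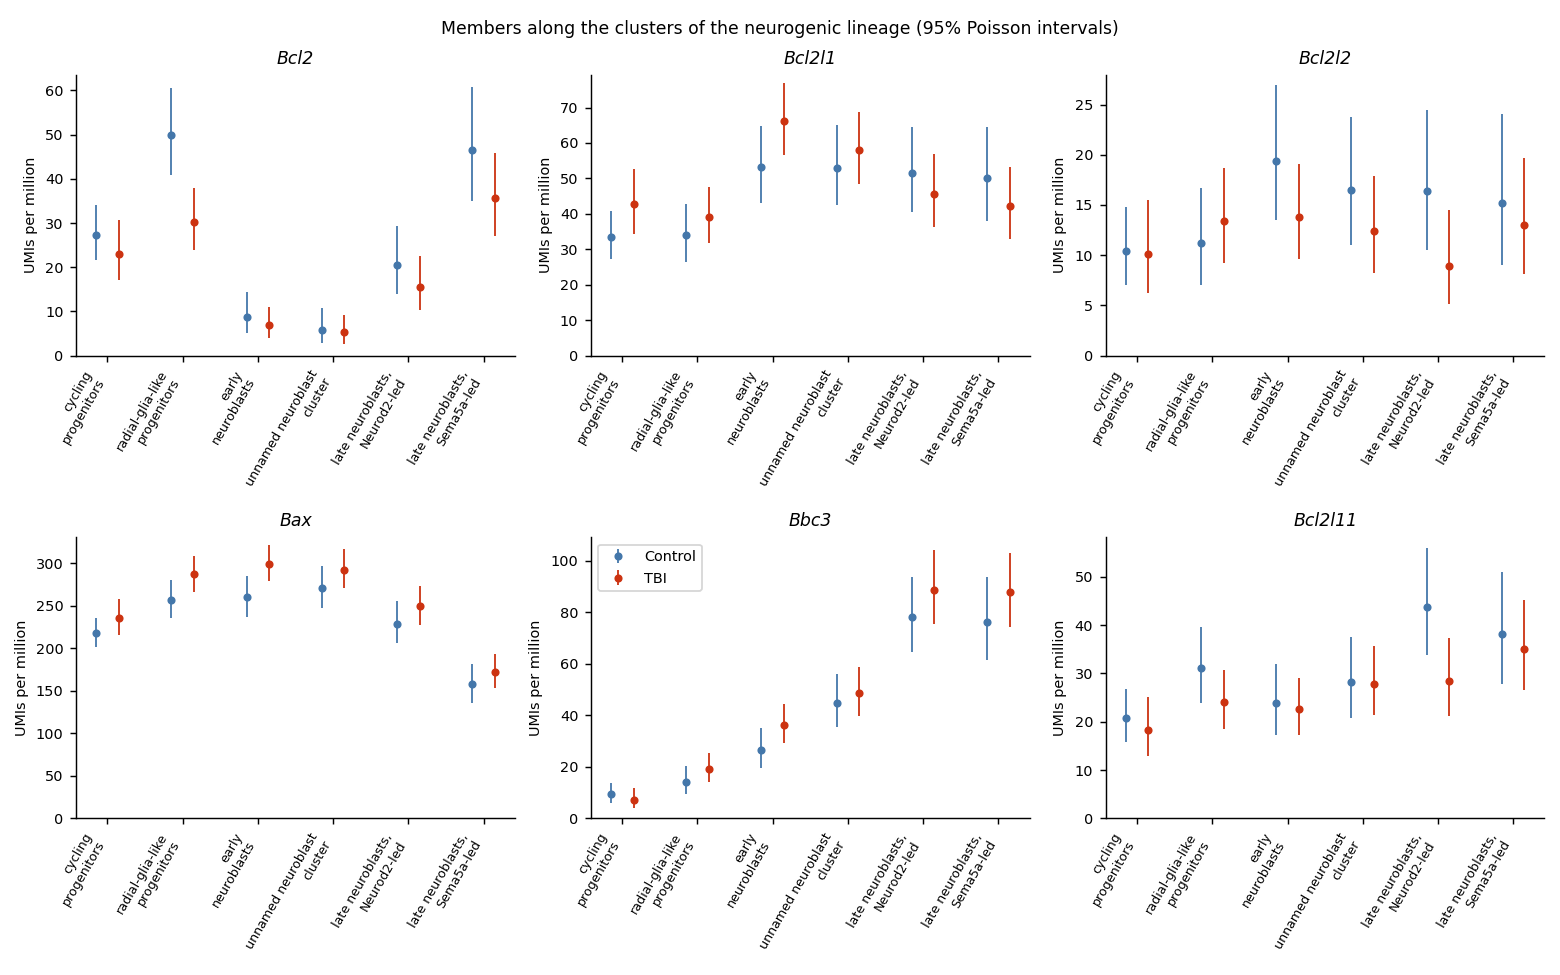
Levels (CPM, axis from 0) of Bcl2, Bcl2l1, Bcl2l2, Bax, Bbc3 and Bcl2l11 in 6 groups of the neuronal lineage, from progenitors to the Neurod2-led and Sema5a-led late clusters, with Control in blue, TBI in red and exact 95% Poisson intervals. Bcl2 is lowest in the early and unnamed neuroblast groups, and Bbc3 goes from 9.32 CPM in Control cycling progenitors to 78.1 and 76.2 in the Control late clusters.

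Bcl2l11 (chromosome 2, 128126038 to 128162547), encoding the BH3-only protein Bim, was highest in microglia, at 79.2 CPM (44.3 to 131) in Control and 42.3 (25.5 to 66.1) in TBI, from 15 and 19 UMIs. Late neuroblasts had 39.5 (32.4 to 47.6) and 30.6 (25.2 to 36.9), pericytes 39.8 and 29.1, and early neuroblasts 23.8 and 22.6. Astrocytes gave 2 UMIs in Control and 1 in TBI. Bim and Puma transcripts were thus both near the detection limit in astrocytes, but Bim was not in pericytes, which also held much Bcl2.

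Bid (chromosome 6, 120891930 to 120916853), encoding a BH3-only protein that is cut by the death-receptor caspase, was detected mainly in microglia and the neuronal lineage. It had 37.0 CPM (14.9 to 76.2) in Control and 31.2 (17.0 to 52.3) in TBI microglia and 17.2 and 24.0 in late neuroblasts. In astrocytes it had 0 UMIs in Control, where a count of 0 allows up to 1.55 CPM, and 1 UMI in TBI. In oligodendrocytes 4 UMIs were counted in Control and 0 in TBI, which allows up to 0.365 CPM. Endothelial cells had 2.24 and 1.85 CPM, pericytes 2.74 and 1.06, and oligodendrocyte precursors 9.09 and 8.23 from 5 UMIs in all.

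Casp9 (chromosome 4, 141793612 to 141815976), the initiator caspase of the apoptosome, had a narrow range. Its levels lay between 6.11 and 20.5 CPM in the 14 groups, from 2 to 90 UMIs each, and no pair of neighbours in their order had intervals apart, which was also so for Bcl2l2, Bak1 and Bid. Astrocytes, which had few transcripts of the BH3-only members Bbc3, Bcl2l11 and Bid, had 16 CPM (10.9 to 22.7) and 20.5 (13.7 to 29.4).

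The number of Bax UMIs per Bcl2 UMI sets a pore-forming member against an anti-death member. It was used to compare cell types, not the genes, since capture differs between transcripts. It was below 1 in stem-like astroglia, at 0.277 (0.197 to 0.384) in Control and 0.373 (0.218 to 0.618) in TBI. Astrocytes as a whole were also below 1, at 0.491 (0.403 to 0.595) and 0.608 (0.499 to 0.739), but their clusters differed. The Ttr-led cluster, the largest, had more Bax than Bcl2 UMIs, 50 against 30 in Control and 64 against 28 in TBI. The Aqp4-led cluster had 52 against 71 and 24 against 23, and the Agt-led cluster 57 against 223 and 81 against 227. The Bax count per Bcl2 UMI was 29.4 (17.9 to 51.8) and 43.4 (27.3 to 73.7) in early neuroblasts, 46.0 and 55.2 in the unnamed neuroblast cluster, and 11.2 and 16 in the Neurod2-led late cluster. In the Sema5a-led late cluster it was back to 3.38 (2.49 to 4.66) and 4.83 (3.65 to 6.49). Oligodendrocytes had the highest ratio, 90.7 and 78.2, but per Bcl2l1 UMI their Bax was 1.19 (1.06 to 1.33) and 1.33 (1.21 to 1.47).

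**Figure D3:**
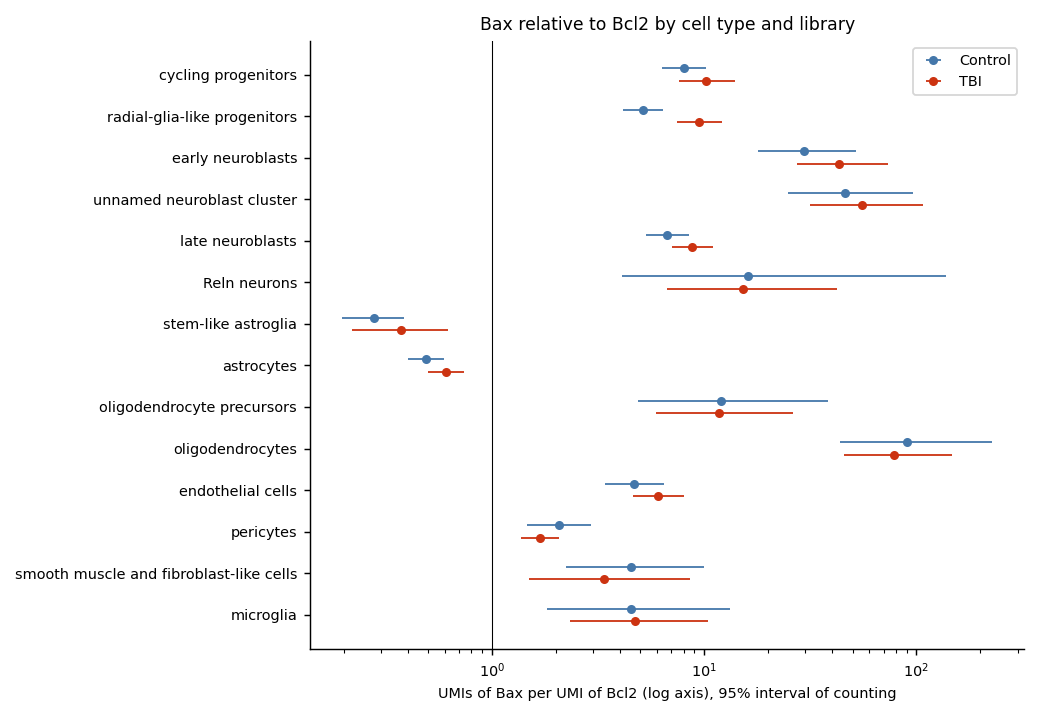
Bax UMIs per Bcl2 UMI (log axis) in each cell group, Control and TBI apart, with exact 95% intervals. The astroglial groups, each taken as a whole, lie below 1, and the early and unnamed neuroblast groups at 29.4 to 55.2.

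Differences between related cell types were counted when they passed 2-fold in the same direction in both libraries, for genes with at least 30 UMIs. From progenitors (cycling and RG-like together) to early neuroblasts, 13.0% of all counted genes passed, and 2 of 9 members did. Bcl2 was lower, with ratios of 0.241 (0.135 to 0.402) in Control and 0.254 (0.146 to 0.419) in TBI. Bbc3 was higher, 2.35-fold (1.56 to 3.52) and 2.62-fold (1.89 to 3.66). The other members did not pass: the Bcl2l1 ratios were 1.58 and 1.63.

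From early to late neuroblasts, 11.4% of all genes passed and again 2 of 9 members, the same genes as in the step before. Bcl2 was now higher, 3.53-fold (2.05 to 6.44) in Control and 3.65-fold (2.18 to 6.43) in TBI, and Bbc3 was higher still, 2.86-fold (2.09 to 4.01) and 2.39-fold (1.90 to 3.04). The repressor and the BH3-only gene thus moved apart in the first step and together in the next. Between the Sema5a-led and Neurod2-led late clusters, where 2.24% of genes passed, Bcl2 was the 1 member of 9 that did, at 2.27-fold (1.43 to 3.67) and 2.28-fold (1.43 to 3.70).

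Astrocytes differed from progenitors in 6 of 9 members, against 40.6% of all genes. The anti-death genes Bcl2 and Bcl2l2 were higher, Bcl2 4.56-fold (3.79 to 5.50) in Control and 7.26-fold (5.86 to 9.04) in TBI and Bcl2l2 2.51-fold and 2.91-fold. In the Ttr-led cluster, the largest of the astrocytes, Bcl2 was 47.7 and 55.4 CPM, beside 36.7 and 27.1 CPM in progenitors. The death-promoting genes Bax, Bbc3, Bcl2l11 and Bid were lower. The ratios were 0.350 (0.295 to 0.414) and 0.453 (0.383 to 0.532) for Bax, 0.183 and 0.102 for Bbc3, and 0.0413 (0.00495 to 0.152) and 0.0330 (0.000826 to 0.188) for Bcl2l11. Bid was at least 6.25-fold lower in Control, against a floor of 3 UMIs, and its TBI ratio was 0.0628 (0.00156 to 0.365). The members that did not pass went the other way by role: the anti-death gene Bcl2l1 had ratios of 0.690 (0.485 to 0.964) and 0.781 (0.551 to 1.09), Bak1 1.59 and 1.53, and Casp9 1.85 (1.12 to 3.00) and 1.86 (1.13 to 2.98). The median log2 ratio of the 9 was -0.54 in Control and -0.36 in TBI, beside -0.18 and -0.20 for all genes.

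Oligodendrocytes and their precursors differed in Bcl2 and Bcl2l1, in opposite directions. The precursors gave only 5 Bcl2 and 3 Bcl2l1 UMIs in Control and 9 and 4 in TBI. Of 8 members with enough UMIs 4 passed, against 28.7% of all genes. Bcl2l1 was higher in oligodendrocytes, 7.32-fold (2.49 to 35.6) in Control and 8.44-fold (3.28 to 31.1) in TBI, and Bcl2 lower, with ratios of 0.0575 (0.0157 to 0.230) and 0.0640 (0.0253 to 0.170). Bax ratios were 0.435 and 0.429 and Bak1 ratios 0.340 and 0.317. The precursors numbered 28 and 55 cells, and their summed oligodendrocyte markers stood at 23296 CPM in Control and 5618 in TBI; the part of this RNA in the result was not tested.

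Endothelial cells differed from mural cells (pericytes with smooth muscle and fibroblast-like cells) in 3 of 8 members, against 26.5% of all genes. Bcl2l1 was higher, 2.98-fold (2.15 to 4.19) and 2.72-fold (2.14 to 3.47), and so was Bbc3, 4.56-fold (1.87 to 13.4) and 2.21-fold (1.34 to 3.75). Bcl2l2 was lower, with ratios of 0.441 (0.215 to 0.861) and 0.279 (0.156 to 0.475). Red blood cell transcripts in the endothelial cells summed to 9237 CPM in Control and 1585 in TBI, and their part in these levels was not tested.

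Within cell types, the 9 genes differed little between TBI and Control. Of 126 pairs of a gene and a cell group, 81 had at least 30 UMIs, and 6 of these, 7.41%, passed 1.5-fold, 4 higher and 2 lower in TBI. Over all genes 11.4% of pairs passed. The median log2 ratio of TBI to Control was -0.00 over the members' pairs and 0.00 over all genes. The 95% counting interval of the ratio lay to one side of 1 in 4 of the 81 pairs, against 12.0% of the pairs of all genes. The members' shares lay below those of all genes.

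Among these 81 pairs, Bcl2 in RG-like progenitors was the 1 that met both criteria. The share of pairs of all genes that met both together was not counted. It was 103 UMIs (50.0 CPM) in Control and 77 UMIs (30.3 CPM) in TBI, a ratio of 0.607 (0.445 to 0.823), and 0.561 to 0.652 under other settings. In these cells the summed astrocyte markers were 2076 CPM in Control and 1915 in TBI, the stem-like astroglia markers 1767 and 1578, and the oligodendrocyte markers 161 and 910, and their part in the result was not tested. Bax in the same cells was 257 and 287 CPM, so the Bax count per Bcl2 UMI was 5.15 (4.16 to 6.42) in Control and 9.45 (7.47 to 12.1) in TBI. Cycling progenitors, early and late neuroblasts also had less Bcl2 in TBI, with ratios of 0.848, 0.778 and 0.804, but each of these intervals held 1. Under other settings the ratio was 0.775 to 1.04 in cycling progenitors and 0.545 to 1.27 in early neuroblasts, so that its direction turned in both, and 0.780 to 0.861 in late neuroblasts. In groups that combine or divide the 14, both criteria were also met by Bcl2 in mural cells, higher in TBI (1.51, 1.12 to 2.06), and by Bcl2l11 in the Neurod2-led late cluster, lower in TBI (0.649, 0.440 to 0.952). For these added groups, too, no share of all genes was counted. In pericytes alone the Bcl2 ratio was 1.2 (0.873 to 1.68). In smooth muscle and fibroblast-like cells it was 1.22 (0.418 to 3.43), from 18 UMIs. Neither part of the mural cells passed 1.5-fold, and both intervals held 1. Pericytes made up 218 of 281 mural cells in Control and 649 of 707 in TBI. Of the mural UMIs without Malat1, over which the level was summed, they gave 728906 of 1219620 and 1887150 of 2209026. The part of this in the mural result was not tested.

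Bax was higher in TBI astrocytes, with a ratio of 1.45 (1.16 to 1.82) that was 1.33 to 1.53 under other settings, and the early neuroblasts had a smaller ratio of 1.15 (1.03 to 1.29). By astrocyte cluster, Bax was 79.5 and 127 CPM in the cluster led by Ttr, 76.1 and 122 in that led by Agt, and 93.2 and 97.6 in that led by Aqp4. Bax was thus higher in TBI mainly in the Ttr-led and Agt-led clusters. TBI astrocytes had fewer UMIs per cell, with a median of 2419 against 3920. They also had more early neuroblast markers, 317 CPM against 211, and more oligodendrocyte markers, 492 against 297; the part of these in the result was not tested.

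The last of the 4 pairs was Bcl2l2 in oligodendrocytes, with a TBI to Control ratio of 0.756 (0.612 to 0.934). The other 5 pairs past 1.5-fold had intervals that held 1. They were Bcl2l1 in Reln neurons (2.28, 0.999 to 6.09) and in smooth muscle and fibroblast-like cells (1.52, 0.764 to 3.04), Bcl2l11 in microglia (0.534, 0.257 to 1.13), and Bak1 (1.62, 0.801 to 3.63) and Casp9 (1.79, 0.819 to 4.44) in pericytes. Among the TBI Reln neurons 14.1% were called doublets, against 0 in Control; with called doublets removed, the pair no longer had 30 UMIs. Under other settings the ratio was 1.53 to 2.75 for Bcl2l1 in Reln neurons, and it crossed below 1.5-fold for Bcl2l1 in smooth muscle and fibroblast-like cells (1.17 to 1.60) and for Bak1 in pericytes (1.21 to 1.82). It stayed past 1.5-fold for Casp9 in pericytes (1.57 to 2.11) and Bcl2l11 in microglia (0.516 to 0.568), among the settings that left at least 30 UMIs. The larger microglial cluster, led by C1qa, had 69.2 CPM of Bcl2l11 (34.5 to 124) in Control and 47.0 (28.3 to 73.4) in TBI. A cluster of 44 microglia led by Ccl5 gave 4 Bcl2l11 UMIs in Control and 0 in TBI. Removing 2 pericyte clusters rich in TBI cells left Bak1 and Casp9 in pericytes under that minimum.

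**Figure D4:**
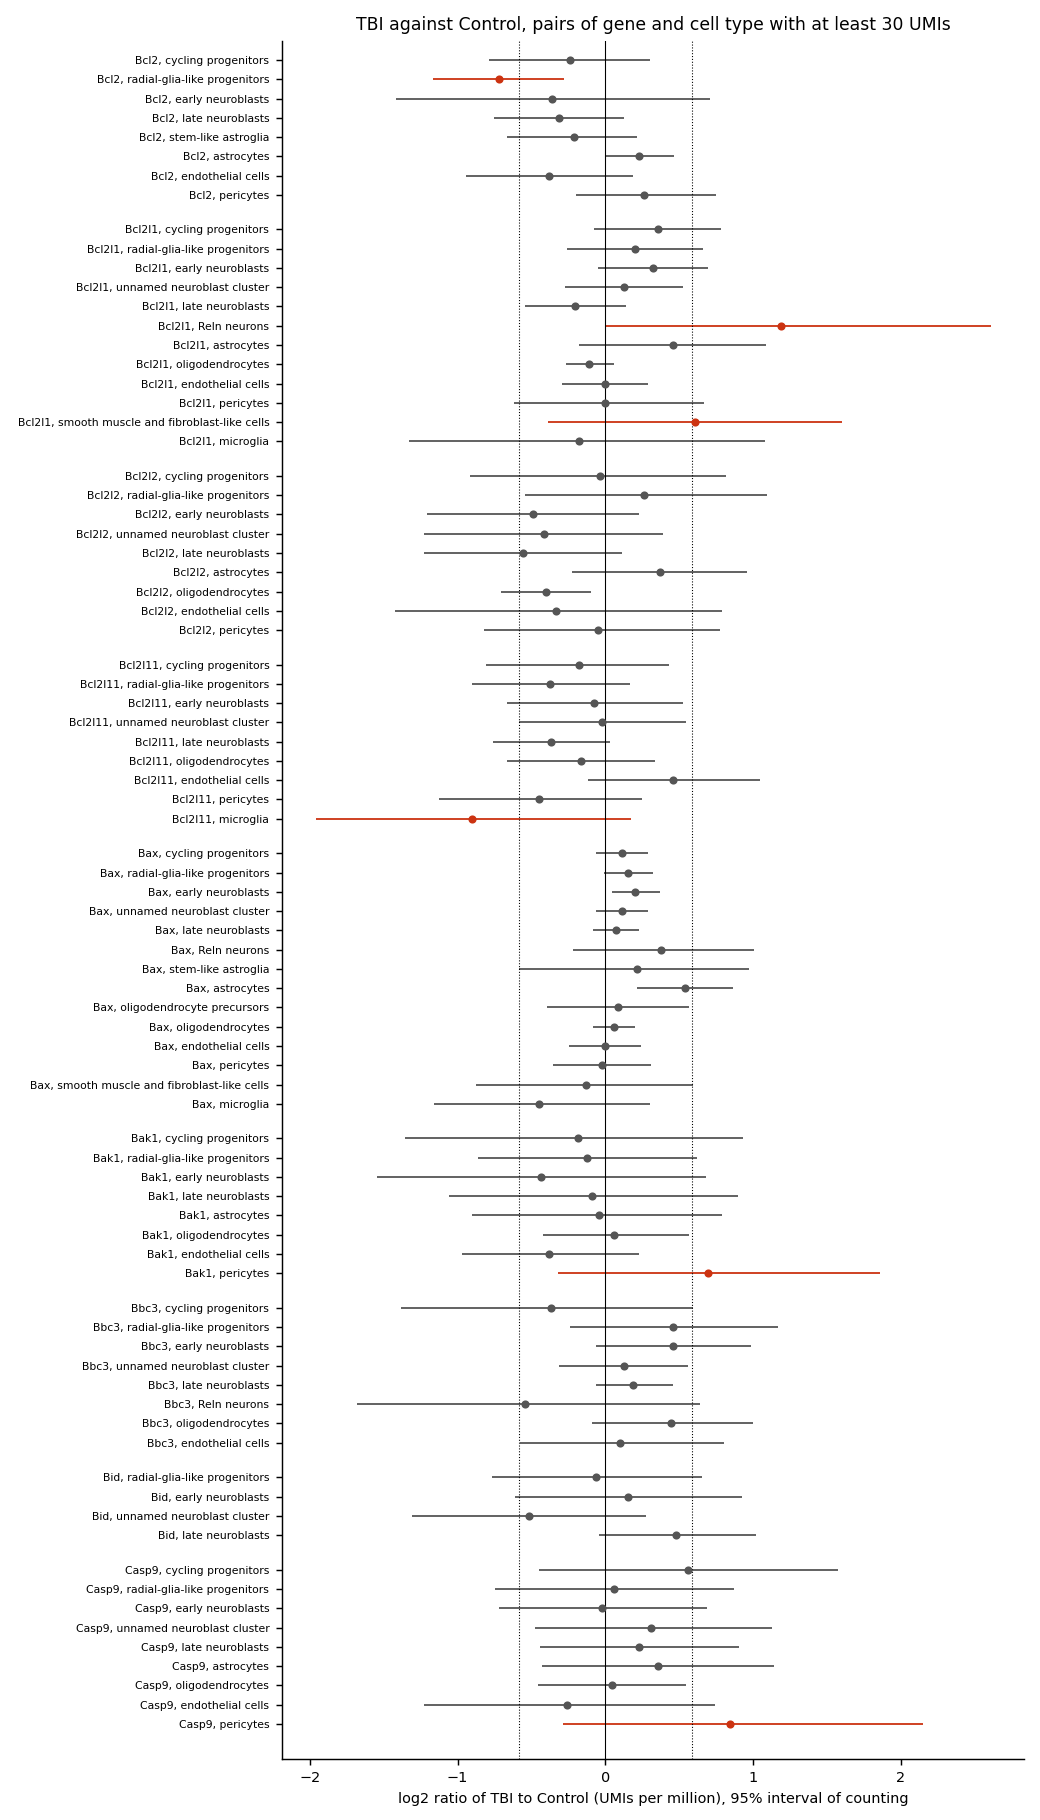
Log2 ratio of TBI to Control level for each of the 81 pairs of gene and cell group with at least 30 UMIs, with exact 95% intervals, a line at no difference, dotted lines at 1.5-fold and the 6 pairs past them in red. The intervals of Bcl2 in RG-like progenitors (log2 ratio -0.72) and of Bax in astrocytes (0.54) do not cross the line at no difference.

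A wider list of 29 other cell death genes was followed in the same way. Its 276 counted pairs of gene and cell group had 28 past 1.5-fold between TBI and Control, 10.1%, against 11.4% for all genes. Of these, 16 were higher and 12 lower, and the median log2 ratio of the counted pairs was -0.02. From progenitors to early neuroblasts 2 of 27 counted genes passed 2-fold, against 13.0% of all genes. Bmf, a BH3-only gene, was higher (2.47 and 3.53), and the death-receptor initiator Casp8 was lower (0.392 and 0.353). From early to late neuroblasts 2 of 26 passed, against 11.4% of all genes. Both were lower: the executioner Casp6 (0.278 and 0.314) and the adaptor Fadd (0.173 and 0.212). The Control intervals of Bmf (0.887 to 6.76) and Casp8 (0.0748 to 1.31) held 1.

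In astrocytes against progenitors 10 of 26 counted genes of the wider list passed, 2 higher and 8 lower, against 40.6% of all genes. The BH3-only gene Hrk was lower (0.0267 in Control and 0.0563 in TBI), as were the effector-like Bok (0.0210 and 0.0163), the initiator Casp2 (0.116 and 0.279) and the apoptosome scaffold Apaf1 (0.317 and 0.441). Bad, also a BH3-only gene, did not pass, with 53.7 CPM in Control and 62.2 in TBI astrocytes. Cycling progenitors had 42.8 and 42.9 CPM of it and RG-like progenitors 64.5 and 57.1. Tmbim6, a membrane protein that restrains Bax-induced death, was higher (2.35 and 2.61). Endog was higher too, at 57.3 CPM in Control and 38.9 in TBI astrocytes. It had 7.94 and 6.26 CPM in cycling and 26.2 and 23.2 in RG-like progenitors. Bag1 was among the lower genes, at 82.7 and 118 CPM in astrocytes. It had 212 CPM in cycling progenitors of each library and 262 and 280 in RG-like progenitors. In oligodendrocytes against their precursors 7 of 24 passed, 2 higher and 5 lower, against 28.7% of all genes. Among them was the mitophagy receptor Bnip3l at 4.37-fold and 4.79-fold. In endothelial against mural cells 3 of 28 passed, against 26.5% of all genes. Each was higher: Bok (2.59 and 2.08), Bnip3l (3.10 and 2.28) and Casp8 (3.65 and 4.73). Between the late neuroblast clusters 0 of 23 passed, against 2.24% of all genes.

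Among the 29, 6 genes had the largest ratio between their highest and lowest cell groups. Bok was highest in endothelial cells, at 172 CPM in Control and 167 in TBI, and Casp6 as well, at 62.1 and 57.8. Birc3, an inhibitor of death-receptor signalling, and Casp8 were highest in microglia, at 121 and 147 CPM and at 106 and 116. Casp2 was highest in RG-like progenitors, at 56.3 and 52.0 CPM, and Hrk in early neuroblasts, at 79.1 and 71.5. Hrk, like Bbc3 a BH3-only gene, had 53.4 and 61.0 CPM in RG-like progenitors. In the unnamed neuroblast cluster, where Bcl2 was lowest in the lineage, it had 51.8 and 56.6 CPM.

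**Figure D5:**
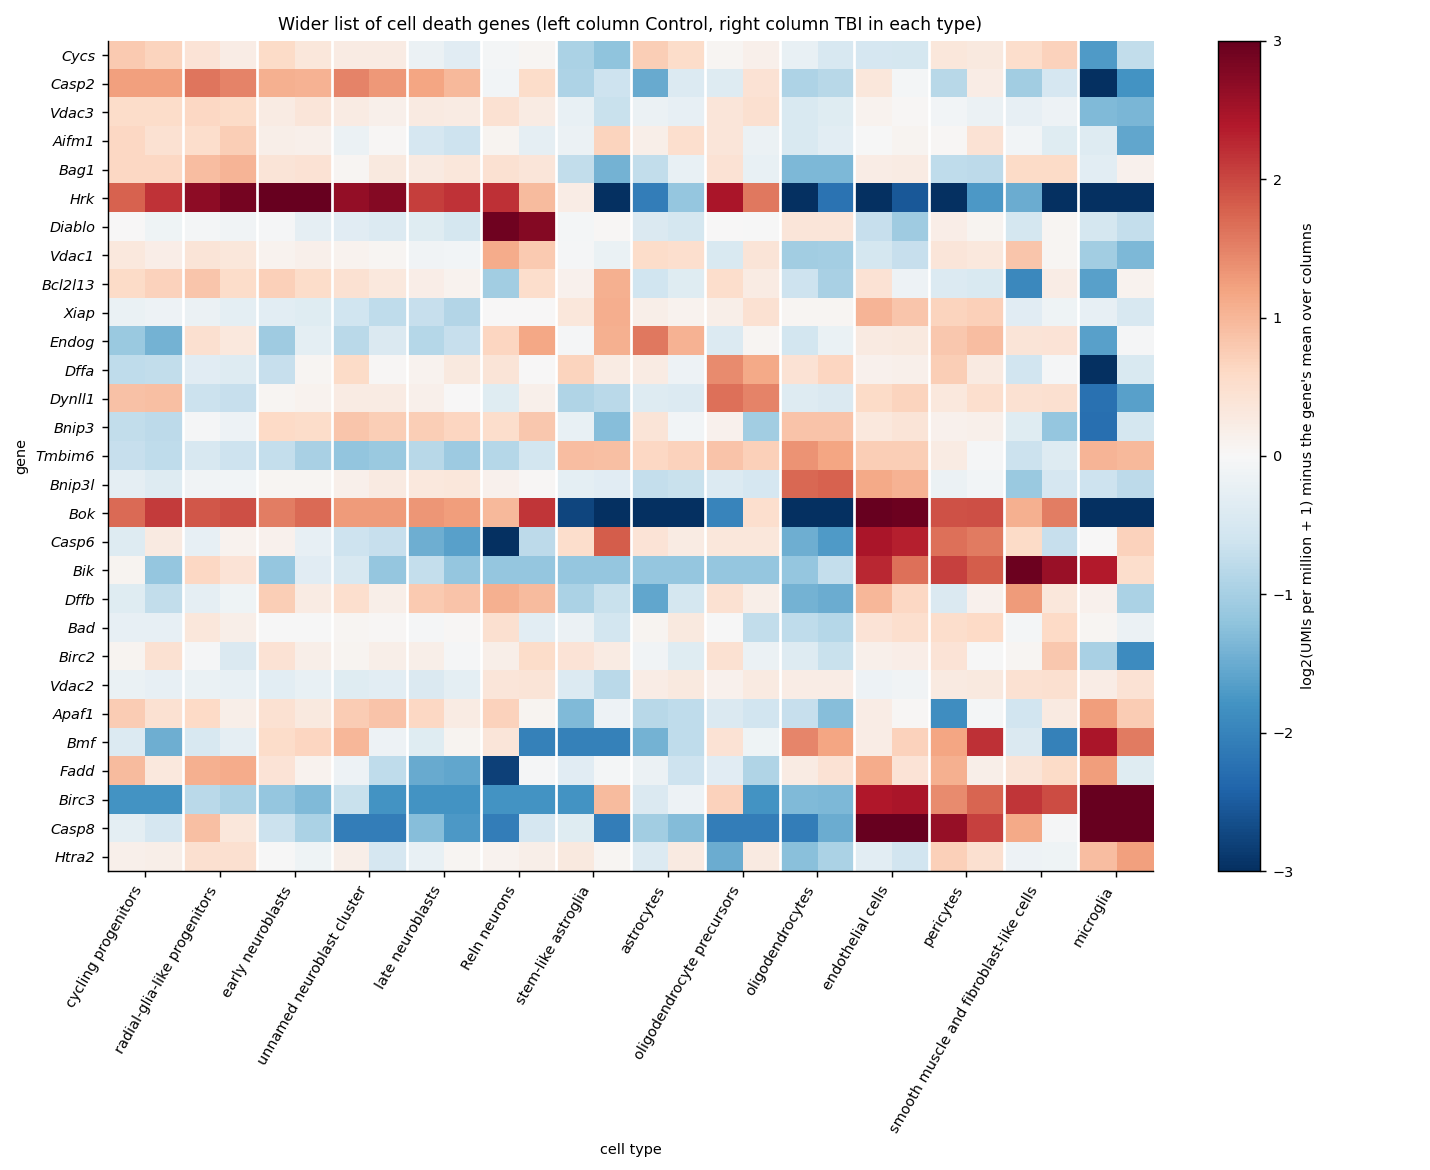
Heat map of the 29 genes of the wider list (lines) in the cell groups (columns, Control left and TBI right), coloured by log2(CPM + 1) minus the gene's mean over all columns and capped at 3 in either direction. The genes with the widest range include Bok in endothelial cells (172 and 167 CPM), Birc3 and Casp8 in microglia, and Hrk in early neuroblasts (79.1 and 71.5 CPM).

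The genes with the most similar pattern were sought over the same 26 points among 10130 genes, by Pearson r of log2(CPM + 1), as a description. The highest were Cbr3 (0.850), Whamm (0.848) and Gm11713 (0.840) for Bcl2 and Mtus1 (0.775), Tsc22d3 (0.768) and Git1 (0.745) for Bcl2l1. For Bax they were Vcp (0.906), Caprin1 (0.902) and Zkscan1 (0.897), and for Bbc3 Fam114a2 (0.831), Gnb2 (0.801) and Gtdc1 (0.799). Bcl2l2 was closest to Fech (0.863), Iqcc (0.857) and Mlh3 (0.840), and Bcl2l11 to Tmsb4x (0.836), Tpt1 (0.829) and Spata13 (0.825). Bak1 was closest to Ifi27 (0.820), Tex261 (0.799) and Adam17 (0.789). Casp9 had the weakest likeness, Dmac2 (0.672), Sdhaf3 (0.668) and Zkscan5 (0.648), and Bid had too few UMIs for this comparison.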

How the data were processed

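Droplet scRNA-seq (10x 3' v3) was available as 1 UMI count table per condition. The authors made these counts with Cell Ranger 3.0.2 on GRCm38 (mm10), and the deposited whole-number counts are not normalized. The tables were assigned to Control and TBI by the cell barcodes the study lists for each condition (356 of 356 and 320 of 320 found in the matching table). The labels list 4 Control and 4 TBI samples; the tables hold 1 library of pooled animals for each condition, and how many animals entered each pool is not settled by the labels.

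Cells were kept when they had at least 200 genes and when their log UMI total differed from that library's median by no more than 3 median absolute deviations (3049 and 5036), in Python 3.11.15 with scanpy 1.11.5 and SciPy 1.17.1. Libraries were integrated by canonical correlation and clustered in R 4.3.3 with Seurat 5.3.0 (20 dimensions and resolution 3.0 for all cells, 30 dimensions, 16 components and resolution 0.8 for neural lineage cells). Clusters were named from lists of 5 to 10 markers, with at least 3 detected, and the score limits for a name were set after the clusters had been seen. Doublets were called with Scrublet and kept. UMIs were summed per type and library, without Malat1 in the total. Ratios needed 30 UMIs. Depth limits precision at least to the counting intervals given. These leave out variation between animals and libraries, which 1 pooled library per condition cannot measure.

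All 9 members are named, with the 6 genes of widest range (at least 200 UMIs) of a wider list, from which 1 gene is not reported here, and, for members with at least 500 UMIs, the 3 genes of most similar pattern. Members and lists were chosen with earlier results of these data known. No test between conditions was made. The scripts were tested on simulated data. Alternatives covered the denominator, the UMI minimum, per-cell averaging, doublets, mitochondrial share, depth, integration, resolution and clusters rich in TBI cells.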

Additional observations from a re-analysis of the deposited data

How the results depend on the processing

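The number of member pairs past 1.5-fold between TBI and Control was 6, became 10 when CPM was averaged over cells in place of summed, and 1 (Bcl2 in RG-like progenitors) with a minimum of 100 UMIs. With that minimum the wider list gave 0 in place of 2 genes both from progenitors to early neuroblasts and from early to late neuroblasts, since fewer genes were counted. No ratio past its fold limit changed direction; some smaller ratios crossed 1, among them Bcl2 in early neuroblasts (0.545 to 1.27). As the geometric mean of both libraries, Bax in oligodendrocytes against precursors went from 0.432 to 0.509 with per-cell averaging and lost its call; the cause was not tested. Bcl2l2 in endothelial against mural cells went from 0.350 to 0.408 with cells over 10% mitochondrial UMIs removed, where 2-fold was no longer passed in each library although the mean stayed past it. Without 2 pericyte clusters rich in TBI cells (405 cells, chosen after seeing the data), the Bcl2l11 ratio in pericytes went from 0.733 to 0.544. Allowing 1 more gene into the clustering, also chosen after seeing the data, gave 7 pairs past 1.5-fold. Of 2754 recomputed levels 2686 moved by less than their interval, and of 756 shares 463 did. The shares that moved further did so mostly where the depth itself was changed, 125 at 1000 UMIs per cell and 167 without thinning. Removing called doublets moved 1 share. No paired analysis was possible because each condition was 1 pooled library, although the labels number the animals alike. A planned contrast of immature granule neurons with late neuroblasts was not run, since no cluster took that name. The Sema5a-led cluster tied for it, and a cluster of 178 cells with little RNA scored best for it but stayed unnamed. The contrast of the late neuroblast clusters was added after seeing the data. Genes with few UMIs (Bak1, Bid and Casp9) were limited by depth in most types.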

Other observations

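Astrocytes were not uniform for Bcl2. The cluster led by Agt and Ednrb (349 cells) had 298 CPM (260 to 340) in Control and 342 (299 to 390) in TBI. The cluster led by Aqp4 and Hsd11b1 (147 cells) had 127 (99.4 to 160) and 93.6 (59.3 to 140), and that led by Ttr and Chchd10 (560 cells) 47.7 (32.2 to 68.1) and 55.4 (36.8 to 80.1). The order of the 3 clusters was the same in both libraries, while their Bax levels in Control lay between 76.1 and 93.2 CPM. The TBI-rich oligodendrocyte cluster led by Il33 and Ptgds (263 cells) had Bcl2 at 8.26 CPM from 2 Control UMIs and 5.78 CPM from 9 TBI UMIs. In this cluster 8.0% of cells were called doublets and endothelial markers gave the second-best name, and their part in the value was not tested.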
